A study of Mus musculus with 4 samples.

Results

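The epidermal barrier genes described here are 53 of the 17097 genes named on the arrays, and they code for the proteins that build, cross-link, process, waterproof or regulate the outermost layer of the skin. They are 30 of 31 listed genes and all genes whose symbol begins with Sprr or Lce and a digit, 10 and 13 genes. Klk5, a protease of the stratum corneum on the same list, is not named in the array annotation and was not analysed here. The 53 genes have 62 of the 45037 probe sets, groups of short probes that each report 1 transcript. A single probe set measured 45 of the genes, and each of the other 8 is given by the probe set with the highest mean over the 4 arrays. No filter on low values was used, so all 53 entered the test.

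Arrays TCQA 1 and TCQA 2 held total RNA of dorsal skin from male C3H mice, 8 weeks old at the start of the experiment. These mice had received the polyphenol 3,4,5-tri-O-caffeoylquinic acid, abbreviated to TCQA, at 1% on the skin every day. Arrays Control 1 and Control 2 held skin of the same sex, strain and age that had received Milli-Q water, and neither group carried an engineered allele. All mice were shaved on the back before treatment, which the paper did to move the hair follicles from rest to growth. The labels give day 30 of treatment and the methods day 37 of the experiment for the collection, with 5 mice per group. Whether an array held 1 mouse or several is not given in the sources used here, and the p-values therefore cover only the spread between arrays, which may be technical. All values are log2 RMA values, and a log2 fold change is the TCQA mean minus the control mean.

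Keratinocytes that leave the basal layer of the epidermis assemble a cornified envelope beneath their membrane. Envoplakin, periplakin and involucrin form its scaffold, loricrin and the small proline-rich (SPRR) and late cornified envelope (LCE) proteins reinforce it, and transglutaminases cross-link the whole. Lipids are attached to its surface, filaggrin is cut into small molecules that hold water, and proteases kept in check by inhibitors release the dead cells at the surface.

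The 4 arrays did not resemble each other equally. Over the 53 genes, Control 1 correlated with each of the other 3 arrays at r between 0.323 and 0.360, while those 3 correlated with each other at r between 0.938 and 0.981. The genes are not independent replicates, and these values describe the arrays only. On TCQA 1 and TCQA 2 the median of all probe sets was 2.54 and 2.49, against 2.30 on Control 1 and 2.55 on Control 2, and 31 and 23 probe sets reached 8 or more, against 522 and 26. Markers of the labelled tissue were low on 3 arrays. Krt14, the keratin of basal keratinocytes, was at 2.37 and 2.70 on the TCQA arrays, against 8.67 on Control 1 and 2.86 on Control 2. Krt1, a keratin of the layers above, was at 3.43 and 3.64, against 8.16 and 3.63. All 5 basal markers and 3 of 4 suprabasal markers were highest on Control 1, as were 7 of 7 skeletal muscle markers and 65 of 66 ribosomal protein genes. The 3 measured reference genes, Actb, Gapdh and Hprt, were also highest on Control 1. Actb was at 2.94 and 2.69 on the TCQA arrays, against 9.02 on Control 1 and 2.58 on Control 2. Gapdh was at 6.32 and 6.37, against 11.02 and 6.65. In bulk skin, fewer cells of a type, less RNA per cell and a weaker signal of a whole array cannot be told apart. None of them was tested.

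No barrier gene passed the test between TCQA-treated and control skin. None of the 53 reached significance by limma at an adjusted p under 0.05 (smallest adjusted p = 0.92), where 0% of all probe sets passed. At an unadjusted p under 0.05 the count was 0 of 53, with a smallest p of 0.103 by limma for Sprr3, beside 0.357% of all genes. By the thresholds of the study, 2-fold with an unadjusted p of at most 0.05, no member was higher or lower with TCQA, against 0.140% and 0.170% of all genes. The log2 fold change was positive for 31 members and negative for 22 (58.5% and 41.5%, against 56.2% and 43.8% of all genes). Its median was 0.09 over the members and 0.08 over all genes.

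Both TCQA arrays lay above both control arrays for 11 members, Flg, Hrnr, Lce1g, Lce1h, Lce1l, Sprr2j-ps, Sprr3, Tgm5, Alox12b, Grhl3 and Ovol2. This is 20.8% of the members, against 16.0% of all genes. Both lay below both control arrays for 6 members, Scel, Calml3, Spink5, Elovl4, Sbsn and Klf4, or 11.3% against 13.6% of all genes. The 2 sets were not alike in size of difference. In the first, log2 fold changes ran between 0.09 for Hrnr and 0.99 for Sprr3, and in the second between -1.09 for Calml3 and -3.41 for Sbsn. The difference between the groups was larger than the gap between the arrays of either group for 7 members, all of them in the first set (Hrnr, Lce1g, Lce1l, Tgm5, Alox12b, Grhl3 and Ovol2). That is 13.2% of the members, against 11.3% of all genes.

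Most of the spread among the members came with 1 array. Control 2, TCQA 1 and TCQA 2 lay within 1 log2 unit of each other for 51 of 53 members (96.2%, against 94.3% of all genes), with Lce3a and Tgm3 as the exceptions. Control 1 was the highest array for 16 members and the lowest for 27, or 30.2% and 50.9%, where over all genes it was highest for 33.9% and lowest for 53.6%. It stood more than 1 unit above each other array for 10 members, against 19.9% of all genes. These were Scel, Calml3, Cdsn, Cst6, Spink5, Elovl4, Dmkn, Krtdap, Sbsn and Klf4. It stood more than 1 unit below each other array for 7 members, or 13.2% against 7.42% of all genes. These were Lce1h, Lce1i, Lce3c, Sprr2d, Sprr2h, Sprr3 and Tgm3.

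**Figure D1:**
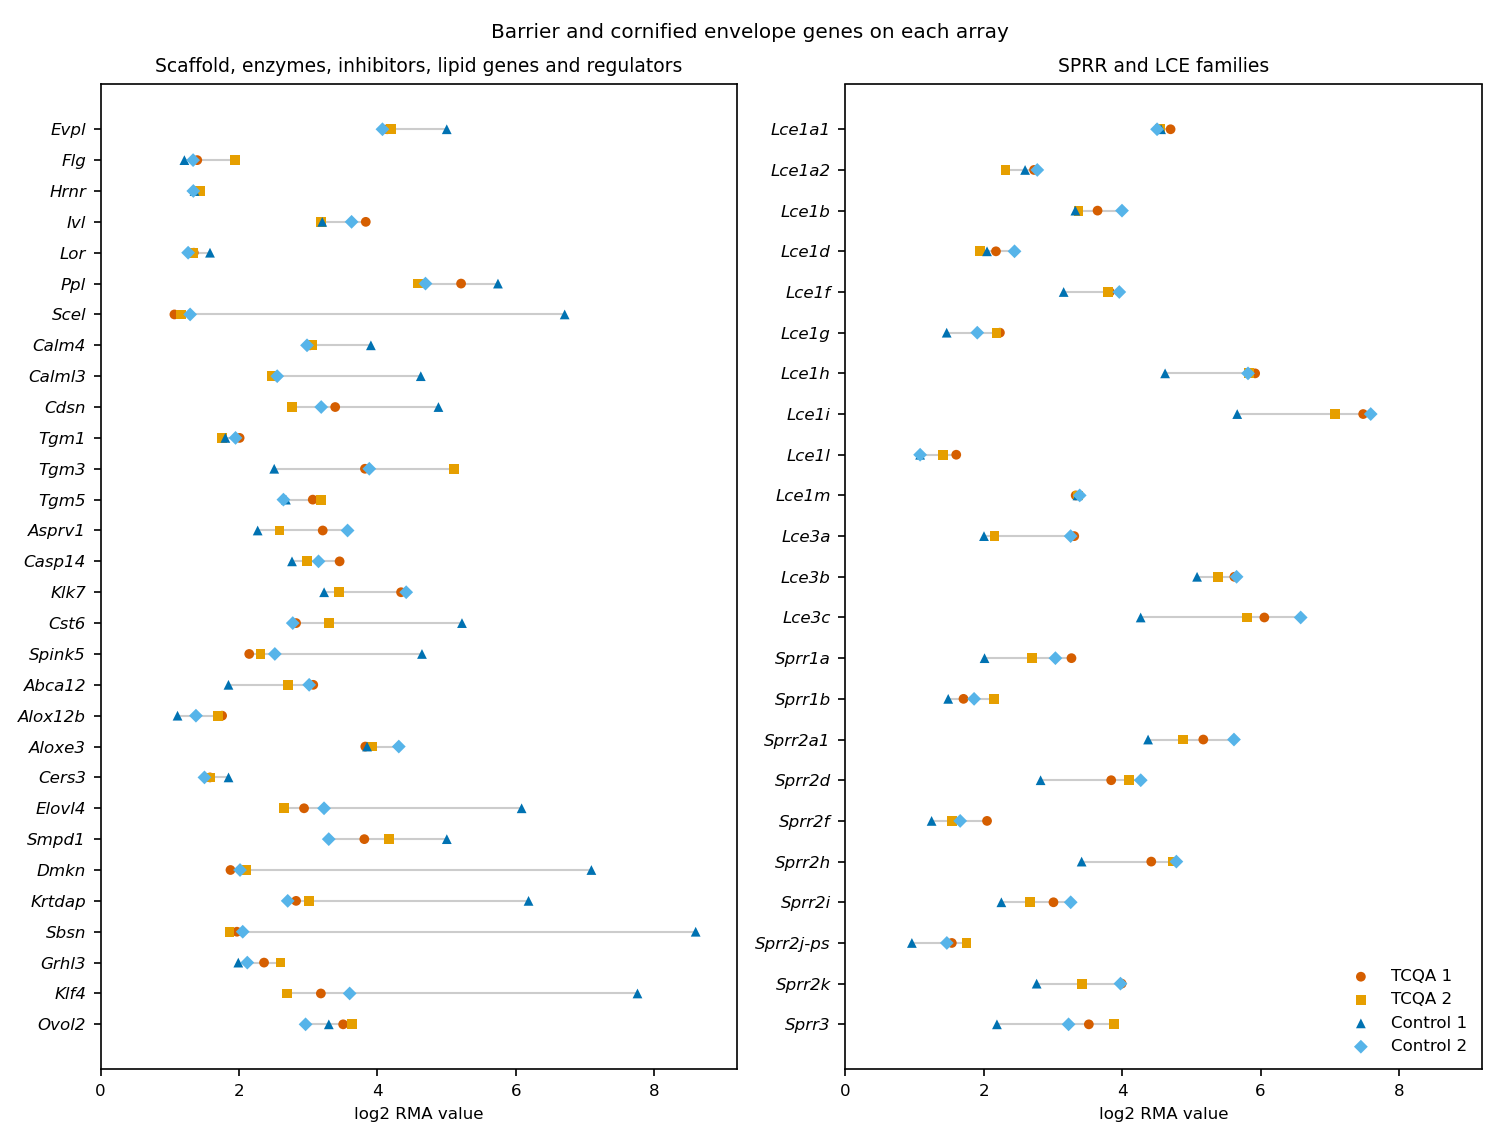
Log2 RMA value of each of the 53 barrier genes on the 4 arrays (TCQA 1, TCQA 2, Control 1 and Control 2, 1 symbol each), joined by a grey line. Control 1 lies far to the right for Sbsn, Klf4, Dmkn, Scel, Krtdap and Elovl4 (6.08 to 8.60) and to the left for most SPRR and LCE genes, while the other 3 symbols lie close together.

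The secreted proteins of the stratified epidermis, suprabasin (Sbsn), dermokine (Dmkn) and keratinocyte differentiation-associated protein (Krtdap), are neighbours on chromosome 7. In the RefSeq gene order they stand in the sequence Sbsn, Dmkn, Krtdap between Gapdhs and Ffar2. All 3 were high on Control 1 alone. The bases before their transcription starts are shown because these neighbours had the same pattern and because each holds a match to TGANTCA. This is a loose form of the AP-1 motif, as N stands for any base where AP-1 sites have C or G. The match of Sbsn, TGAATCA, has A there, and those of Dmkn and Krtdap, TGAGTCA, have G. Shown are 120 bases from RefSeq (GRCm38.p6, plus strand) at chr7:30751351-30751470 for Sbsn, chr7:30763636-30763755 for Dmkn, the first of its 3 windows, and chr7:30787785-30787904 for Krtdap. Each ends at the base before the start, with matches to TGANTCA or TATAAA in capitals.
Sbsn: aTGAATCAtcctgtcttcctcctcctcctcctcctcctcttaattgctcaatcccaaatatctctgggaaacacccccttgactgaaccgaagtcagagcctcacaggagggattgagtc
Dmkn: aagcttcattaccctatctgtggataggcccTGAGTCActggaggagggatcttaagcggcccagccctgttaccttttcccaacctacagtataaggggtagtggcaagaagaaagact
Krtdap: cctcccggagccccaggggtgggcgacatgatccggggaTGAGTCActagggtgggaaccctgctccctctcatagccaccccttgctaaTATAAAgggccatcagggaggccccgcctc

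Sbsn had log2 values of 1.97 and 1.86 on the TCQA arrays, against 8.60 on Control 1 and 2.05 on Control 2. Dmkn was at 1.88 and 2.11, against 7.09 and 2.01. Krtdap was at 2.82 and 3.01, against 6.18 and 2.70. The 2 control arrays thus lay further apart than the groups did for each of the 3 genes. Log2 fold changes were -3.41 for Sbsn, -2.56 for Dmkn and -1.53 for Krtdap, with standard errors of 2.21, 1.72 and 1.20. Against Control 2 alone they were -0.14, -0.02 and 0.21, so that the sign for Krtdap changed. A second probe set of Sbsn gave 2.02 and 1.98 with TCQA, against 8.11 and 1.63, and the other one gave 1.75 and 2.23, against 2.94 and 1.60. All 3 Sbsn probe sets were highest on Control 1, but the last of them by only 0.71. Its log2 fold change was -0.28, and that of the second probe set was -2.87. The suffix of the first probe set (x) marks possible matches to other genes. That of the second (a) marks several transcripts of the same gene, and the last has neither.

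SPRR proteins, rich in proline repeats, and LCE proteins, rich in glycine and cysteine, are small substrates of the transglutaminases and lie together in the epidermal differentiation complex on chromosome 3. Most of their 23 genes were lower on Control 1 instead, by smaller amounts than the secreted genes were higher. Control 1 was the highest array for none of them and the lowest for 19 (82.6%, against 53.6% of all genes). These comprise all 10 Sprr genes and 9 of 13 Lce genes (69.2%). It stood more than 1 unit below each other array for 6 of the 23, or 26.1% against 7.42% of all genes. The log2 fold change was positive for 19 (82.6%, against 56.2% of all genes) and negative for 4 (Lce1a2, Lce1b, Lce1d and Lce1m). Its median was 0.34. None passed limma. Against Control 2 alone 8 were positive and 15 negative (34.8% and 65.2%, against 45.3% and 54.7% of all genes), with a median of -0.15. Members of both families are close copies, so the values of single genes are uncertain. Of the 23 genes, 9 were read by probe sets of suffix s, x or a. The suffixes s and x mark possible matches to other genes. The suffix a, that of Sprr2a1, marks several transcripts of the same gene. Sprr2j-ps is a pseudogene by its symbol.

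Lce1i, the brightest of the 23 by mean, had 7.48 and 7.07 on the TCQA arrays, against 5.66 on Control 1 and 7.59 on Control 2. Its log2 fold change of 0.65 (standard error 0.73) became -0.31 against Control 2 alone. Lce3c, at 6.05 and 5.80 against 4.27 and 6.58, had the same order, with 0.50 (standard error 0.84) over all 4 arrays and -0.65 without Control 1. For both genes the TCQA arrays lay between the 2 controls. Lce1h was at 5.92 and 5.83, against 4.62 and 5.82, so that TCQA and Control 2 were level and the log2 fold change of 0.66 (standard error 0.51) was 0.06 without Control 1. Sprr3 was the member of the families with the largest difference and kept its sign. It had 3.52 and 3.88 on the TCQA arrays, against 2.19 on Control 1 and 3.23 on Control 2, and its log2 fold change, 0.99 with a standard error of 0.48 (adjusted p = 0.92 by limma), was 0.47 without Control 1.

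Among the remaining family members, log2 fold changes lay between -0.19 for Lce1d and 0.52 for Lce1g. Lce1g had 2.23 and 2.19 on the TCQA arrays, against 1.47 and 1.91 on the controls, and Lce1l had 1.60 and 1.41, against 1.08 and 1.08. These are the only SPRR or LCE genes whose group difference exceeded the gap within each group. Lce1a1 and Lce1m were level on all 4 arrays, between 4.51 and 4.70 for Lce1a1 and between 3.33 and 3.39 for Lce1m. Lce3a varied within both groups, with 3.31 on TCQA 1 and 2.16 on TCQA 2, against 2.00 on Control 1 and 3.26 on Control 2.

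All 27 members on chromosome 3 lie in the stretch of 66 genes from Lor to Hrnr, which also holds Ivl and Flg. Control 1 was lowest for 20 of these 27 (74.1%, against 53.6% of all genes) and highest only for Lor. The SPRR and LCE genes are 23 of the 27 and make up 19 of the 20, so this count largely repeats theirs. Among Lor, Ivl, Flg and Hrnr, Control 1 was lowest for Flg only. For the 26 members on other chromosomes it was highest for 15 (57.7%, against 33.9% of all genes). The 10 members at which it stood more than 1 unit above all other arrays were all among these 26.

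**Figure D2:**
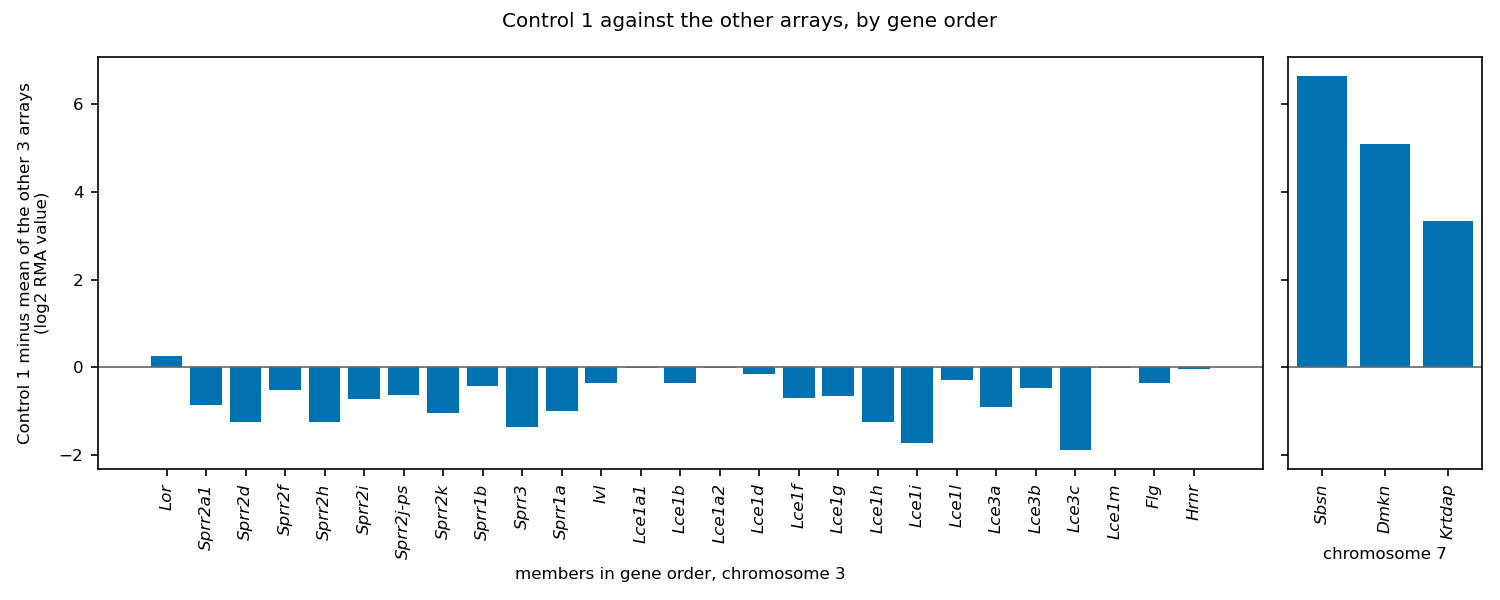
Control 1 minus the mean of the other 3 arrays (log2 RMA value) for the 27 barrier genes on chromosome 3 (left) and the neighbours Sbsn, Dmkn and Krtdap on chromosome 7 (right), in gene order. Bars start at 0. Most bars on chromosome 3 are negative, and all 3 on chromosome 7 are positive.

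The same stretch is shown for all 6 chromosome 3 members that were more than 1 unit low on Control 1 (RefSeq, GRCm38.p6). On the plus strand these are Sprr2d at chr3:92339020-92339139, Sprr2h at chr3:92385565-92385684 and Lce3c at chr3:92944366-92944485. On the minus strand they are Sprr3 at chr3:92458721-92458840, Lce1h at chr3:92765066-92765185 and Lce1i at chr3:92778900-92779019. Capitals mark TATAAA or TGANTCA as before, and the TGANTCA matches of Sprr2d and Sprr2h lie further upstream than the bases shown.
Sprr2d: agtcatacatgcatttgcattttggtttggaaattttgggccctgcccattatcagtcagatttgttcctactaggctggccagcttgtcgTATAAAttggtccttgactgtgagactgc
Sprr2h: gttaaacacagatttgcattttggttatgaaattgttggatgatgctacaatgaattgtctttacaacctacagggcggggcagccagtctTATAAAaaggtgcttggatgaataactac
Sprr3: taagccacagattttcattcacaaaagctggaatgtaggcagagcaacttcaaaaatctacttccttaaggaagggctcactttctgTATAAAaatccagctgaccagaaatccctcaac
Lce1h: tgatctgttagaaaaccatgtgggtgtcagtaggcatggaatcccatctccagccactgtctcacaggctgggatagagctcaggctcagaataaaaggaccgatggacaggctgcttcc
Lce1i: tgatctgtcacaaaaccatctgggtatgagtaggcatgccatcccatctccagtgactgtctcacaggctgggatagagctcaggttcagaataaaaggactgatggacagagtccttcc
Lce3c: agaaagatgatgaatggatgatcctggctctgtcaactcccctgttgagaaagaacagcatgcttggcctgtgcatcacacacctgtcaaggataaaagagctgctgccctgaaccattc

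RefSeq windows matched 45 of the 53 members, and no window was matched for Aloxe3, Calml3, Cst6, Evpl, Lce1f, Ppl, Spink5 and Sprr2j-ps. In the 250 bases before the start, on both strands and with overlaps between motifs allowed, TGANTCA was in 14 of the 45 genes (31.1%). It was in 7.82% of 27025 genes in the table. As N is any base, these counts include matches outside the stricter AP-1 motif. Among members more than 1 unit high on Control 1, 7 had a window and 4 held TGANTCA (Sbsn, Dmkn, Krtdap and Scel). Elovl4, Klf4 and Cdsn did not, while Sprr2d and Sprr2h, low on Control 1, did. TATAAA was in 16 (35.6%), against 14.3%. The 2 motifs were not shared evenly between the families. All Sprr genes with a window except Sprr2a1 and Sprr3 held TGANTCA and no Lce gene did. GGGTG, the core of KLF sites, was in 25 members (55.6%), against 54.5% of all genes. AACCNGTT, a motif of Grainyhead-like factors, was in 0 of 45, against 2% of all genes. A match is a run of letters and was not tested as a binding site.

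The scaffold proteins envoplakin (Evpl) and periplakin (Ppl), which link keratin filaments to the envelope, were each highest on Control 1. Evpl had 4.14 and 4.20 on the TCQA arrays, against 5.00 on Control 1 and 4.07 on Control 2. Ppl had 5.21 and 4.58, against 5.74 and 4.69. Their log2 fold changes of -0.37 and -0.32 (standard errors 0.45 and 0.52) became 0.10 and 0.20 against Control 2 alone. Involucrin (Ivl), a substrate laid down early, had 3.83 and 3.18, against 3.20 and 3.63. Its groups overlapped and differed by 0.09 (standard error 0.41).

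The late envelope and filament-binding genes Lor, Flg and Hrnr were dim on every array, also on Control 1, where Krt1 was at 8.16. Each was read by 1 probe set, and whether that probe set reports its transcript well was not tested. Loricrin (Lor), the main mass of the envelope, was at 1.35 and 1.33 with TCQA, against 1.58 and 1.26. Filaggrin (Flg), which bundles keratin and is then broken down to moisture-holding molecules, was at 1.40 and 1.94, against 1.21 and 1.34. Its log2 fold change was 0.39 (standard error 0.37), and the gap between the 2 TCQA arrays was wider than the difference. Hornerin (Hrnr), a relative of filaggrin, was at 1.43 and 1.44, against 1.36 and 1.34, a difference of 0.09 that exceeded the gaps within the groups but turned negative after quantile normalization and after median centring. All 3 genes were below the median of all probe sets on each array. Sciellin (Scel), another envelope precursor, was dim on 3 arrays only, with 1.07 and 1.16 against 6.71 on Control 1 and 1.29 on Control 2. Its log2 fold change of -2.89 (standard error 1.83) was -0.18 without Control 1. A second Scel probe set had 1.71 and 1.91, against 1.40 and 2.16, a log2 fold change of 0.03, so the 2 probe sets disagreed on Control 1.

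Calm4 and Calml3 code for calmodulin-like calcium sensors of the differentiating epidermis, and corneodesmosin (Cdsn) for the adhesive protein that holds corneocytes together. The 3 genes shared the high value on Control 1. Calm4 was at 3.03 and 3.05 on the TCQA arrays, against 3.90 and 2.98 on the controls. Calml3 was at 2.53 and 2.47, against 4.63 and 2.55. Cdsn was at 3.39 and 2.77, against 4.88 and 3.19. Log2 fold changes were -0.41, -1.09 and -0.96 in that order (standard errors 0.44, 0.76 and 0.68), and 0.06, -0.05 and -0.11 against Control 2 alone.

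Transglutaminases join envelope proteins through lasting bonds, and 3 of them were measured. Tgm5 had 3.07 and 3.19 on the TCQA arrays, against 2.68 and 2.64 on the controls, and both groups were tight. The log2 difference was 0.47 ± 0.32 (limma's standard error) with all arrays, with an adjusted p = 0.92 by limma, and 0.48 without Control 1. Tgm3 had the largest positive log2 fold change of the 53 genes, 1.27 (standard error 0.70), and 0.58 without Control 1. It was at 3.82 and 5.10, against 2.51 and 3.88, so TCQA 1 lay below Control 2 and the groups overlapped. Tgm1, the membrane-bound form, had 2.01 and 1.75, against 1.80 and 1.95, a log2 fold change of 0.01.

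The proteases and their inhibitors differed in where Control 1 stood. Caspase-14 (Casp14) and Asprv1, which process filaggrin, and the kallikrein Klk7, which cuts corneodesmosomes, were lowest on Control 1. Casp14 had 3.45 and 2.98 with TCQA, against 2.76 and 3.15. Asprv1 had 3.21 and 2.58, against 2.27 and 3.57, and Klk7 had 4.34 and 3.44, against 3.23 and 4.42. The groups overlapped for all 3, with log2 fold changes of 0.26, -0.02 and 0.07 in that order. The inhibitors were highest on Control 1. Spink5, which codes for the kallikrein inhibitor LEKTI, had 2.15 and 2.31 on the TCQA arrays, against 4.64 and 2.52, or -1.35 on the log2 scale (standard error 0.78) and -0.29 without Control 1. Cst6, the cysteine protease inhibitor cystatin E/M, had 2.82 and 3.30, against 5.22 and 2.78, and its log2 fold change of -0.94 (standard error 0.89) became 0.29 without Control 1.

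Among the lipid genes, Elovl4, which makes the very long fatty acids of barrier ceramides, had the largest difference. It had 2.94 and 2.65 on the TCQA arrays, against 6.08 on Control 1 and 3.23 on Control 2, or -1.86 on the log2 scale (standard error 1.01) and -0.43 without Control 1. A second probe set gave 1.23 and 1.59, against 6.17 and 1.21, where the TCQA arrays lay above Control 2. Both probe sets were high on Control 1 alone. Alox12b, a lipoxygenase that oxidises the linoleate of those ceramides, had 1.76 and 1.70, against 1.11 and 1.38. This difference of 0.48 (standard error 0.33) was larger than the gap in either group and was 0.35 without Control 1. Its partner enzyme Aloxe3 did not follow it, with 3.82 and 3.92 against 3.85 and 4.31, a log2 fold change of -0.21.

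The lipid transporter Abca12 was low on Control 1, with 3.07 and 2.70 on the TCQA arrays against 1.85 and 3.01, and its log2 fold change of 0.46 (standard error 0.52) was -0.12 without Control 1. Smpd1, the acid sphingomyelinase that yields ceramides, had 3.81 and 4.17, against 5.00 and 3.30. The TCQA arrays lay between the 2 controls, and -0.16 became 0.70 without Control 1. A second Smpd1 probe set was level, at 3.28 and 3.36 against 3.39 and 3.49. Cers3, a ceramide synthase, was dim at 1.58 and 1.58, against 1.85 and 1.50.

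Of the transcription factors that direct barrier formation, Klf4 lay below both controls on the TCQA arrays and Grhl3 and Ovol2 above both, and none passed the test. Klf4 had 3.18 and 2.69 with TCQA, against 7.76 on Control 1 and 3.60 on Control 2. The log2 fold change was -2.74 (standard error 1.43). A second probe set had 2.70 and 2.85, against 7.55 and 3.08. Both probe sets kept a lower TCQA mean without Control 1, by -0.66 and -0.31. Grhl3, which the mouse embryo needs to form its skin barrier, had 2.36 and 2.60, against 1.99 and 2.12, and differed by 0.43 (standard error 0.33), or by 0.36 without Control 1. Ovol2, which holds cells in the epithelial state, had 3.50 and 3.63, against 3.30 and 2.96. Its log2 fold change was 0.44 (standard error 0.34), and 0.61 without Control 1.

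**Figure D3:**
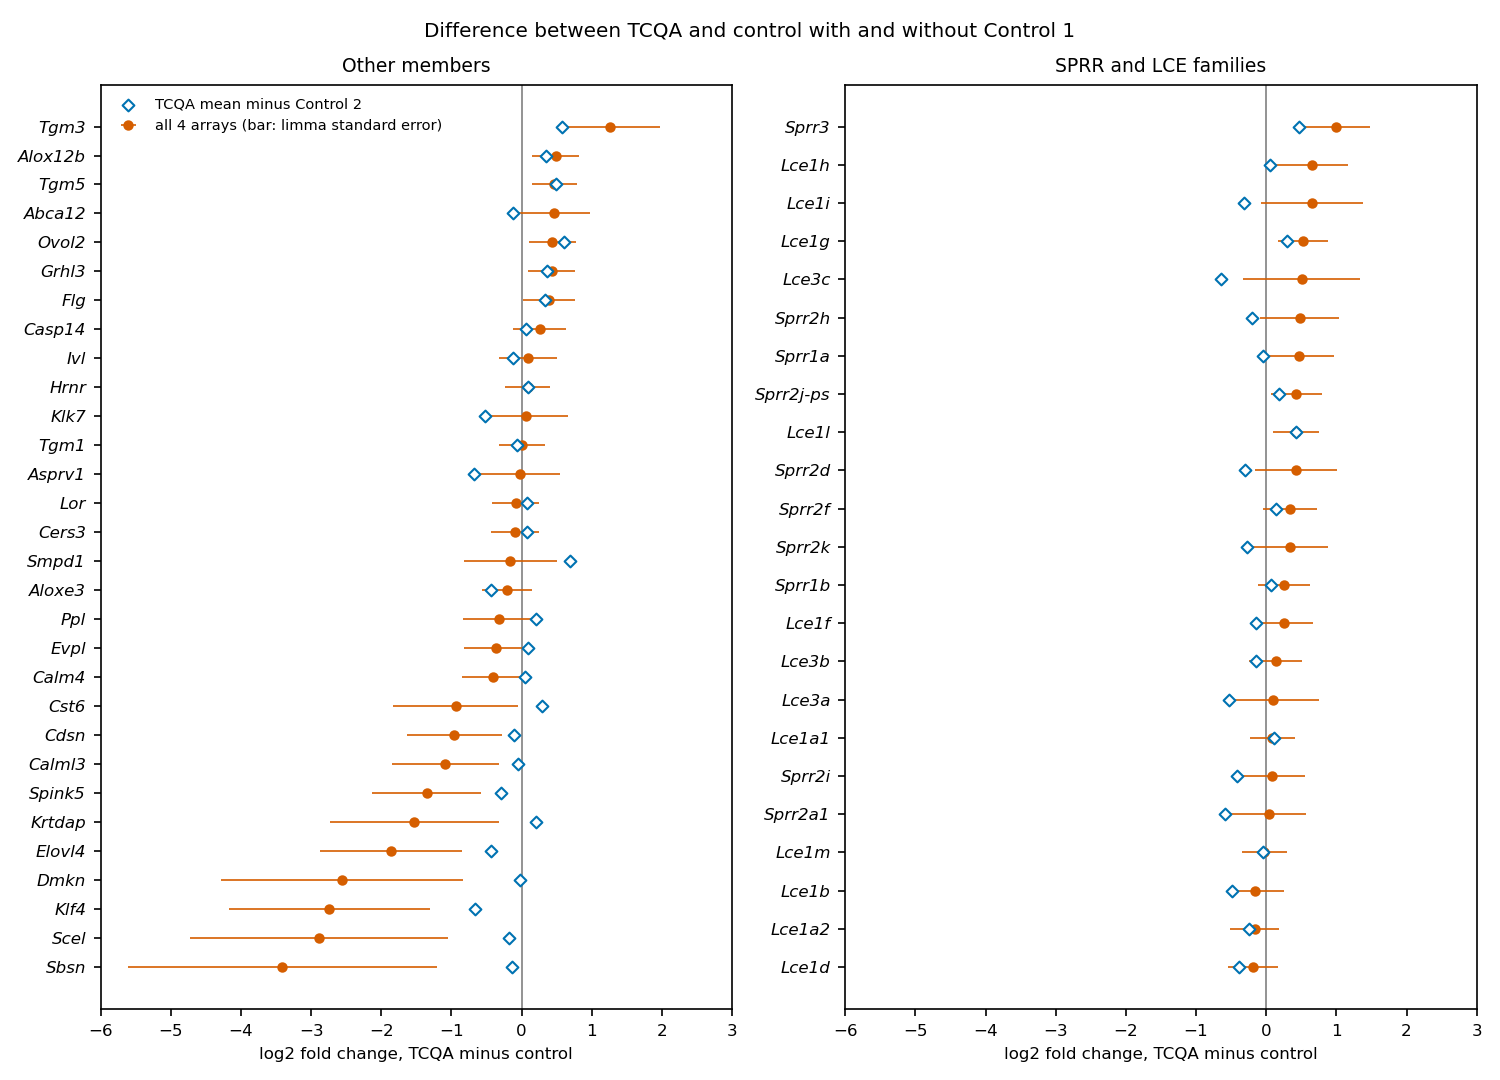
Log2 fold change (TCQA minus control) of each barrier gene over all 4 arrays (orange points, bars are limma standard errors) and of the TCQA mean minus Control 2 alone (open blue diamonds). The 6 most negative points, -1.53 for Krtdap to -3.41 for Sbsn, have standard errors over 1, and the diamonds of all 53 genes lie between -0.67 and 0.70.

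With Control 1 left out, log2 fold changes were positive for 24 members and negative for 29, or 45.3% and 54.7%, against 45.3% and 54.7% of all genes. The median was -0.05 over the members and -0.03 over all genes. Both TCQA arrays were above Control 2 for 19 members (35.8%, against 26.3% of all genes) and below it for 21 (39.6%, against 34.9%). The largest of these differences were 0.70 for Smpd1, 0.61 for Ovol2 and 0.58 for Tgm3 in 1 direction, and -0.67 for Asprv1, -0.66 for Klf4 and -0.65 for Lce3c in the other. With Control 1 as the lone control in place of Control 2, limma called 16 members at an adjusted p under 0.05. The 6 higher with TCQA were Lce1h, Lce1i, Lce3c, Sprr2d, Sprr2h and Sprr3, beside 7.34% of all probe sets. The 10 lower with TCQA were Calml3, Cdsn, Cst6, Dmkn, Elovl4, Klf4, Krtdap, Sbsn, Scel and Spink5, beside 16.1% of all probe sets. That fit takes the lone control to vary as the TCQA arrays do, and these calls were absent with Control 2 in the fit.

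Other genes of barrier formation, 60 measured of a list of 64, were counted in the same way. None passed limma, 28 log2 fold changes were positive and 32 negative, and the median was -0.02, or 0.06 without Control 1. Control 1 was highest for 28 and lowest for 25 (46.7% and 41.7%, against 33.9% and 53.6% of all genes). It stood more than 1 unit above each other array for 24 and below for 3 (40.0% and 5.00%, against 19.9% and 7.42%). Both TCQA arrays were above both controls for 12 genes and below for 9, or 20.0% and 15.0% of the list, against 16.0% and 13.6% of all genes. In the first set, Sptlc3, a subunit of the enzyme that starts sphingolipid synthesis, had 2.77 and 3.13 with TCQA, against 1.62 and 2.29, a log2 fold change of 0.99 and of 0.66 without Control 1. In the second, Lypd3, a membrane protein of the suprabasal epidermis, had 2.14 and 2.34, against 2.94 and 2.91, and -0.69 over all arrays was -0.67 without Control 1. Lypd3 was level on the 2 control arrays. Spint1, an inhibitor of the barrier protease matriptase, had 3.50 and 2.97, against 4.84 and 3.87, with -1.12 over all arrays and -0.63 without Control 1. These 3 examples were chosen after their values were seen.

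**Figure D4:**
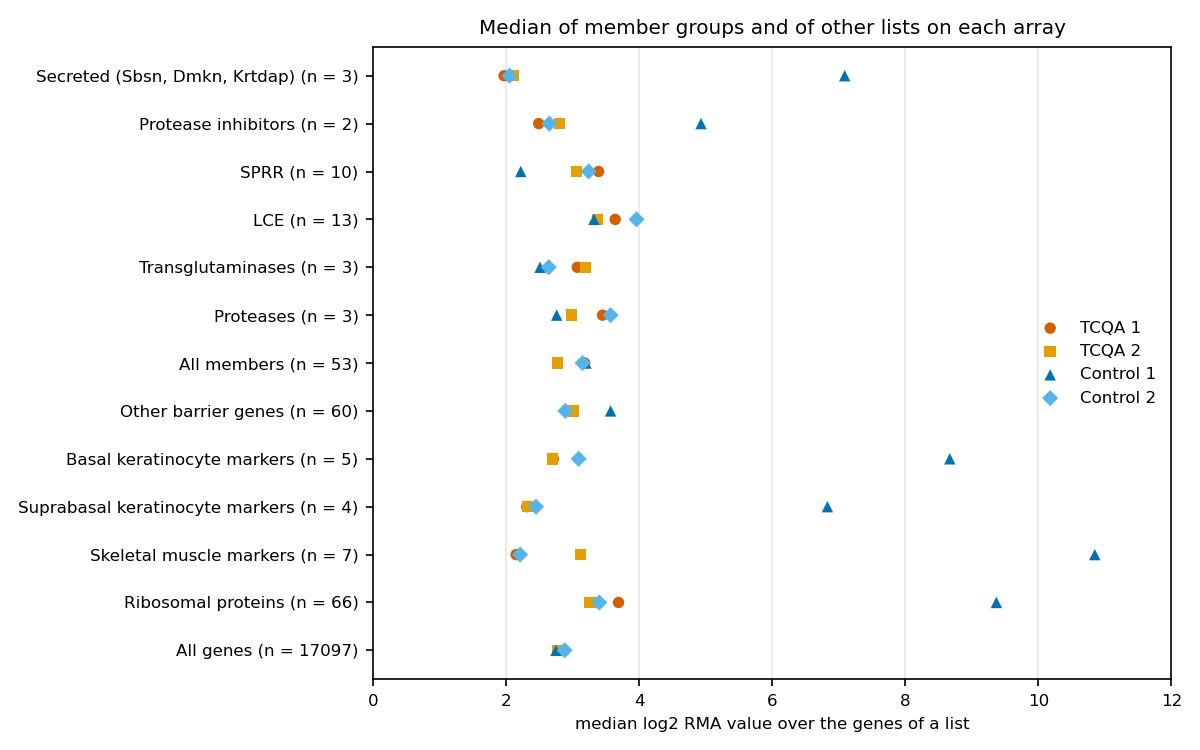
Median log2 RMA value over the genes of each member group and of other lists on each of the 4 arrays, 1 symbol per array, with the number of genes in brackets. Control 1 is far above the other arrays for basal keratinocyte markers (8.67), muscle markers (10.85) and ribosomal protein genes (9.37) and below them for the SPRR and LCE genes.

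Marker lists moved with both kinds of member. The 5 basal keratinocyte markers had a median of 2.71 and 2.70 on the TCQA arrays, against 8.67 and 3.09 on the controls, and the 4 suprabasal markers 2.31 and 2.32, against 6.83 and 2.45. For 7 skeletal muscle markers the medians were 2.15 and 3.12, against 10.85 and 2.21. Ribosomal protein genes, used by all cells, had 3.69 and 3.26, against 9.37 and 3.40. Control 1 was the lowest array for most hair and melanocyte markers, as it was for 53.6% of all genes. Control 1 was lowest for 5 of 5 hair cortex and cuticle markers, with medians of 2.70 and 2.70 on the TCQA arrays, against 1.62 and 2.48, and for 4 of 5 inner root sheath markers, at 2.03 and 2.55, against 1.75 and 1.87. It was lowest for 4 of 6 melanocyte markers (66.7%), at 2.93 and 2.79, against 2.07 and 2.72. The same held for 3 of 4 endothelium markers and 3 of 5 immune markers. Control 1 was highest for 4 of 5 fibroblast, 3 of 3 measured adipocyte and 2 of 4 measured sebaceous gland markers, against 33.9% of all genes. The part of cell makeup and of the quality of each array in these values was not tested.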

How the data were processed

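Total RNA of treated dorsal skin was measured on 4 Affymetrix mouse PM arrays, 2 per group. The authors deposited log2 values made with RMA in Affymetrix Expression Console, 1 for each of 45141 probe sets and array. Groups were taken from the sample titles. Affymetrix's 104 controls did not enter. Of the other 45037 probe sets, 28898 name 1 gene in the platform annotation, 551 name several and 15588 are not listed, and RefSeq gave gene order. limma 3.58.1 (R 4.3.3) tested TCQA against control by lmFit with eBayes. Tests were two-sided, left 2 residual degrees of freedom, and were adjusted by Benjamini-Hochberg across all 45037. With 2 arrays in each group the smallest exact permutation p is 0.333. Full values are given for up to 3 members per role group by mean and up to 3 by difference, and other members are named after their values were seen. The members and lists were chosen with earlier results of these data known. The limma step was tested on simulated data with the spread of TCQA 1, TCQA 2 and Control 2. That test therefore does not cover a spread as wide as the one Control 1 adds. Depth does not apply, and the number of arrays limits the precision. Alternatives were further quantile normalization, median centring, other probe set choices, trend and robust options and a replicate block. Others left out dim probe sets, those of suffix s, x or a, or each array. The analysis of variance named in the methods was also used.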

Additional observations from a re-analysis of the deposited data

How the results depend on the processing

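No member was called under any alternative with both control arrays in the fit or without Control 1. Leaving out each array in turn gave between 0 and 16 called members, 16 without Control 2. The members' median log2 fold change of 0.085 became 0.210 after quantile normalization and -0.003 after median centring, where that of all genes was 0.073 and -0.009, and it lay between -0.051 and 0.420 with 1 array left out. The 17 members whose groups did not overlap became 9 without dim probe sets, where 39 members were left. They became between 25 and 46 with 1 array left out, where 1 group holds a single array. Over all genes, both TCQA arrays lay above both controls for 16.0% and below for 13.6%. Without Control 1 these shares were 26.3% and 34.9%. For the other settings they were not counted, so those counts describe the setting only. The sign of the log2 fold change turned for 9 of 53 members after quantile normalization, 5 after centring, 23 without Control 1, 4 without Control 2, 7 without TCQA 1 and 2 without TCQA 2. Among the 31 members given with full values, it turned after quantile normalization for Aloxe3 (0.04), Evpl (0.25), Ppl (0.56), Smpd1 (0.51) and Tgm1 (-0.14), after centring for Klk7 (-0.02) and Tgm1 (-0.08), and with the probe set chosen without Control 1 for Scel (0.03). Without probe sets of suffix s, x or a, Sbsn was at -0.28, as its brighter probe sets were left out. With 1 array left out, the lowest and highest log2 fold changes of those of the 31 that turned were -0.12 and 1.04 for Abca12, -0.44 and 0.02 for Aloxe3, -0.67 and 0.63 for Asprv1, -0.87 and 0.06 for Calm4, -2.16 and 0.29 for Cst6, -0.83 and 0.10 for Evpl, -0.23 and 0.42 for Ivl, -0.52 and 0.66 for Klk7, -3.27 and 0.21 for Krtdap, -0.31 and 1.61 for Lce1i, -0.65 and 1.66 for Lce3c, -0.84 and 0.20 for Ppl, -1.01 and 0.70 for Smpd1 and -0.12 and 0.13 for Tgm1. The cause was not tested. The sources used here do not say whether the replicate numbers pair the arrays. The correlation of deviations was -0.124, which cannot settle this because Control 1 differed so much from the other arrays. With the replicate block, 0 members were called and 281 probe sets had an unadjusted p under 0.05, against 141 without it, and with the numbers crossed, chosen after seeing the data, 0 members and 69 probe sets. The methods' analysis of variance gave 754 probe sets and 3 members at an unadjusted p under 0.05 and 0 members after adjustment.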

Other observations

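One probe set names both Sprr2a1 and Sprr2a3 and belongs to no single gene. Its log2 values were 5.34 and 5.16 on TCQA 1 and TCQA 2, against 4.07 on Control 1 and 5.81 on Control 2, so that the TCQA arrays lay between the controls.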
